A study of Gallus gallus with 71 samples.

Results

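Female and male broiler chicks were compared in the paraventricular nucleus of the hypothalamus (PVN). The libraries were those labelled as PVN and collected at hour 0 (just before a heat challenge) or at hour 12 of it, with sex taken from the labels. This gave 15 of the 71 libraries of the series, 7 from females and 8 from males. At hour 0 there were 2 control females, 2 control males, 2 EHC females and 2 EHC males, and at hour 12 there were 2 control females, 2 control males, 1 EHC female and 2 EHC males. All chicks were Hubbard x Cobb-500 broilers whose sex was read from the gonads. Control eggs stayed at 37.5°C, whereas the eggs for embryonic heat conditioning (EHC) were held at 39.5°C for 12 h a day between embryonic days 7 and 16. The chicks lived at 30°C and were challenged at 36°C on day 4 after hatch. Each library was made from the RNA of a punch of the PVN of 1 bird after removal of ribosomal RNA. The remaining 8 PVN libraries, of hour 2, were left out of the comparison, since the sex labels of 2 of them went against their expression, so that the choice of hours also rested on genes limited to a sex. In a punch, fewer cells of a type and less RNA per cell cannot be told apart.

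In birds the female carries a Z and a W chromosome and the male carries a pair of Z chromosomes. The W is absent from males, so genes found on it alone are read only in females. The second Z of males is compensated only in part, and many Z genes are therefore known to be higher in males by less than a doubling. The PVN houses neuroendocrine neurons, among them those that drive the stress axis, and its neurons make peptide hormones that are cut from larger precursors. Markers of these neurons could not be read here, because the count table names genes by Ensembl identifier and only 93 identifiers were paired with a symbol. None of the defining PVN genes (SIM1, OTP, AVP, OXT, CRH, TRH) is among them, so the label of the punch was not checked against the data. The chromosome is known for 92 of the 93 symbols, of which only PSAT1 lies on Z and none on W.

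Total counts were between 1739986 and 7219945 in the 7 female libraries and between 3975407 and 7003701 in the 8 male libraries. The share of counts from 11 mitochondrially encoded mRNAs was 0.697% to 1.37% in females and 0.590% to 1.23% in males, so that the sexes overlapped. The labels were set beside 39 genes that were picked on hour 0 alone, having no count in the 4 males and at least 10 counts in each of the 4 females. No gene met the mirrored rule, with males in place of females. The summed level of the 39 genes, as counts scaled to the total of the library (CPM), was 824, 851, 911 and 914 in the hour 0 females. In the hour 12 libraries, which were not used to pick the 39 genes, it was 777, 870 and 935 CPM in the females. The hour 12 males held 0.621, 1.25, 1.58 and 14.2 CPM. All 39 genes had more counts in each hour 12 female than in any hour 12 male, and all 39 were called at hour 12 by edgeR. Hours 0 and 12 were kept because their labels went with such genes, so these values describe the libraries and are no independent check of the labels. The male with 14.2 CPM, Sample_174, had 59 counts spread over 24 of the 39 genes.

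Hour 2 differed in this respect. Sample_69, labelled male, held 874 CPM of the same genes and counts for all 39, whereas Sample_72, labelled female, held 4.00 CPM. The other hour 2 libraries were at 926, 990 and 1029 CPM in females and at 0 in the 3 males.

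**Figure D1:**
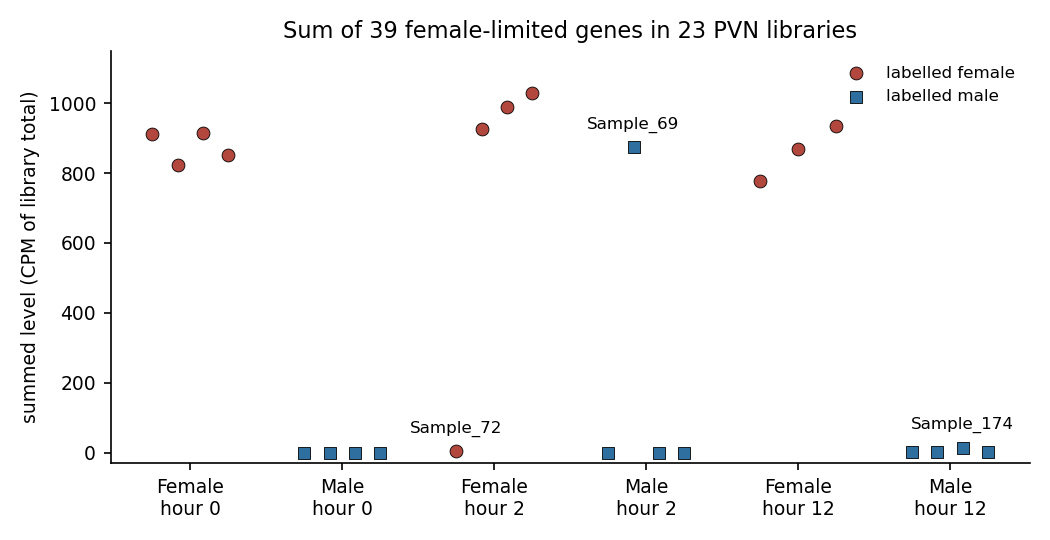
Summed level of the 39 genes found only in females at hour 0 (CPM of the library total, vertical axis) in the 23 PVN libraries, by labelled sex and hour; each point is a library and the axis is linear. The 7 females of hours 0 and 12 lie between 777 and 935 CPM and the 8 males between 0 and 14.2 CPM, while Sample_69 and Sample_72 of hour 2 lie opposite to their labels.

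The comparison of sex asked which genes differed between females and males in the PVN across both hours and both incubation treatments. A total of 1697 of 20363 genes tested (8.33%) were called at an adjusted p of at most 0.1, with 716 (3.52%) higher and 981 (4.82%) lower in females (quasi-likelihood test of edgeR, p adjusted by Benjamini and Hochberg's method, treatment and hour as covariates). Differences are log2 fold changes of females over males throughout. DESeq2 called 1840 genes. There were 850 genes called in the full comparison and again in each of the 15 fits that left out a library, of which 334 were higher and 516 lower in females. The number of calls rested on single libraries: it was 994 without the female Sample_144, 1066 without the male Sample_15 and 1079 without the female Sample_30.

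The higher genes were spread widely in size, while most lower genes lay in a narrower band. Of the higher genes, 100 had a log2 fold change up to 0.5, 184 one of 0.5 to 1 and 100 one of 2 to 4. Among the genes higher in females, 93 had a log2 fold change over 4. Their median level, taken over each gene's mean, was 9.40 CPM in females and 0.0313 CPM in males, and in 81 of them every female library lay above every male library. The fitted fold change of such genes depends on how a count of 0 is treated, and their levels are the better measure. Another 239 genes were higher by 1 to 2 on the log2 scale, mostly from low levels, with medians of 5.61 CPM in females and 2.10 CPM in males. Of these, only 5 had no overlap between the sexes. Among the genes lower in females, most (563 of 981) had a log2 fold change between -1.5 and -0.5, and the median levels were 18.1 CPM in females and 30.9 CPM in males. The sexes did not overlap in 201 of these. Of the other lower genes, 273 lay above -0.5, 69 between -2 and -1.5, and 76 at -2 or below. Median levels in females and males were 77.9 and 103 CPM in the 273, 1.70 and 5.50 CPM in the 69, and 0.433 and 2.24 CPM in the 76. Over all genes tested, 0.575% were higher and 1.15% lower in every female library than in any male library. The 516 lower genes called in all 15 fits had a median log2 fold change of -0.88, with quartiles of -1.18 and -0.62.

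Of the genes without a symbol, the 2 higher and the 2 lower genes with the smallest p are described as examples. ENSGALG00010012906 was at 68.2, 75.1, 77.8 and 105 CPM in the hour 0 females and at 62.1, 78.7 and 87.3 CPM in the hour 12 females. It had no count in the 4 hour 0 males and 1, 2, 0 and 1 counts in the 4 hour 12 males. At hour 0 it was at least 567-fold higher in females, with the males set to a floor of 3 counts over the group. ENSGALG00010013700 was between 43.01 and 66.4 CPM in the 7 females, with a median of 52.4 CPM, and at most 0.5 CPM in the 8 males. Both genes were read in every female and were absent or almost absent among males.

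The lower genes behaved otherwise, being plainly expressed in both sexes. ENSGALG00010006249 was at 56.0, 57.4, 66.9 and 68.5 CPM in the hour 0 females and at 134, 136, 152 and 166 CPM in the hour 0 males. At hour 12 it was at 51.8, 55.3 and 67.2 CPM in females and at 125.97, 133, 135 and 147.5 CPM in males. Every female library lay below every male library at each hour. Its log2 fold change of -1.22 (SE 0.083) had an adjusted p of 4.66e-08 in edgeR and an exact permutation p of 0.000155 (two-sided, over every split of the 15 libraries into 7 and 8, the smallest they can give). The gene was picked for its small p in these same libraries, so the permutation p is no separate support. ENSGALG00010010254 was at 27.2 ± 4.03 CPM in females (SD, n = 7) and at 75.96 ± 7.74 CPM in males (SD, n = 8), again without overlap. Here females and males differed by -1.49 on the log2 scale (SE 0.105), with an adjusted p of 8.01e-08 in edgeR. The table gives no name or chromosome for these 4 genes.

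**Figure D2:**
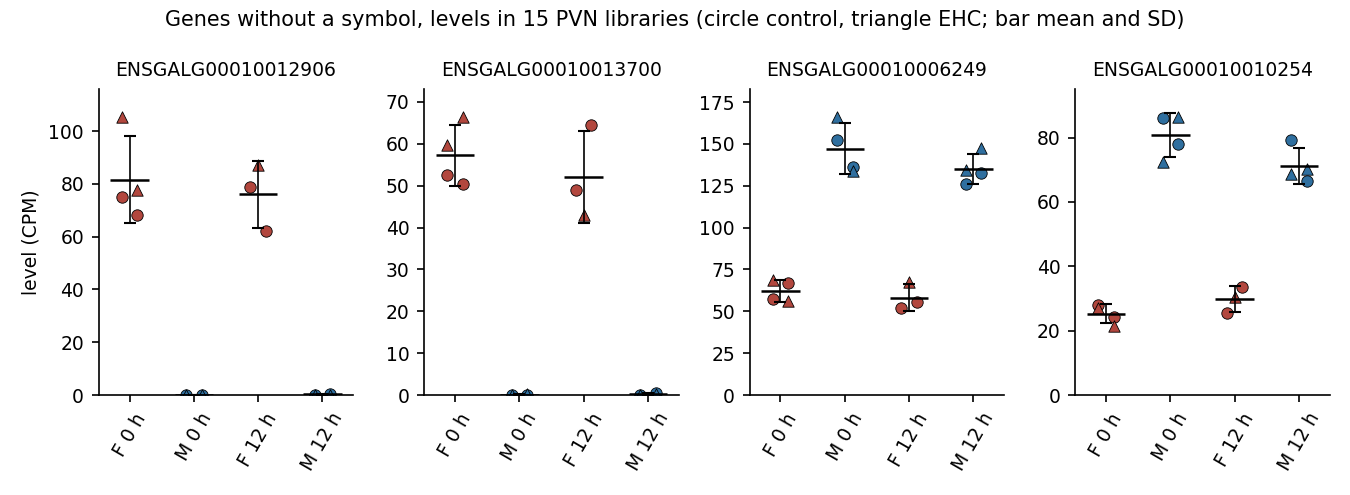
Level in CPM (vertical axis, linear, from 0) of 4 genes without a symbol in the 15 PVN libraries, by sex (F, M) and hour; circles are control and triangles EHC chicks, and bars are the mean and SD of each group. In the 2 genes on the left males lie at or near 0 CPM, and in the 2 on the right females lie at 51.8 to 68.5 and 21.4 to 33.6 CPM against 125.97 to 166 and 66.5 to 86.5 CPM in males.

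The hours hold different chicks, so that a difference called at hour 0 could be read again at hour 12. At hour 0 (4 females, 4 males) edgeR called 1009 genes (4.96%), 382 higher and 627 lower in females. Of the 382, 357 were also higher in females at hour 12, 187 of them at an unadjusted p under 0.05 and 98 at the adjusted threshold. The median hour 12 log2 fold change of the 382 was 0.90, or 0.88 with the 27 genes that had no count in hour 12 males set to their bound. Of the 627 lower genes, 592 were also lower in females at hour 12, 293 of them at an unadjusted p under 0.05 and 101 at the adjusted threshold. Their median hour 12 log2 fold change was -0.58, with quartiles of -0.91 and -0.24. Over all genes tested, the hour 12 median was 0.01 and 51.1% of genes were higher in females. Of these 20363 genes, 929 were higher and 878 lower at hour 12 at an unadjusted p under 0.05 in edgeR. At the adjusted threshold 114 were higher and 121 lower.

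The hour 0 calls of different size did not hold alike at hour 12. All 92 genes that were higher by over 4 on the log2 scale at hour 0 were higher at hour 12, 78 of them called. Of the 252 genes between -1.5 and -0.8 at hour 0, 247 were lower at hour 12, with a median of -0.70. The genes at -1.5 or below at hour 0 had a median of -0.95 at hour 12, and 9 of them were called there. Of the 104 genes that were higher by up to 1 at hour 0, 91 were higher at hour 12, with a median of 0.23 and none called. The genes were picked for their size at hour 0, which by itself makes the hour 12 values smaller on average.

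At hour 12 (3 females, 4 males) 235 genes were called (1.15%), 114 higher and 121 lower in females, and DESeq2 called 390. All 235 had the same direction at hour 0. The genes called at both hours numbered 199, which is 19.7% of the hour 0 calls and 84.7% of the hour 12 calls. Both counts moved with single libraries. The hour 0 count was 323 without Sample_30, 378 without Sample_15, 383 without Sample_27, 430 without Sample_24, 546 without Sample_45 and 1582 without Sample_60. The hour 12 count, in percent of the 235, was 27.7% without Sample_150 (the EHC female), 46.8% without Sample_177, 48.9% without Sample_159, 54.5% without Sample_126, 60.4% without Sample_144 and 200% without Sample_147, the library with the lowest total. The higher number of calls at hour 0 is not a difference between the hours by itself. A test of the difference (sex by hour) called 0 genes in edgeR, with 966 at an unadjusted p under 0.05, and 0 in DESeq2, with 731 at that level.

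**Figure D3:**
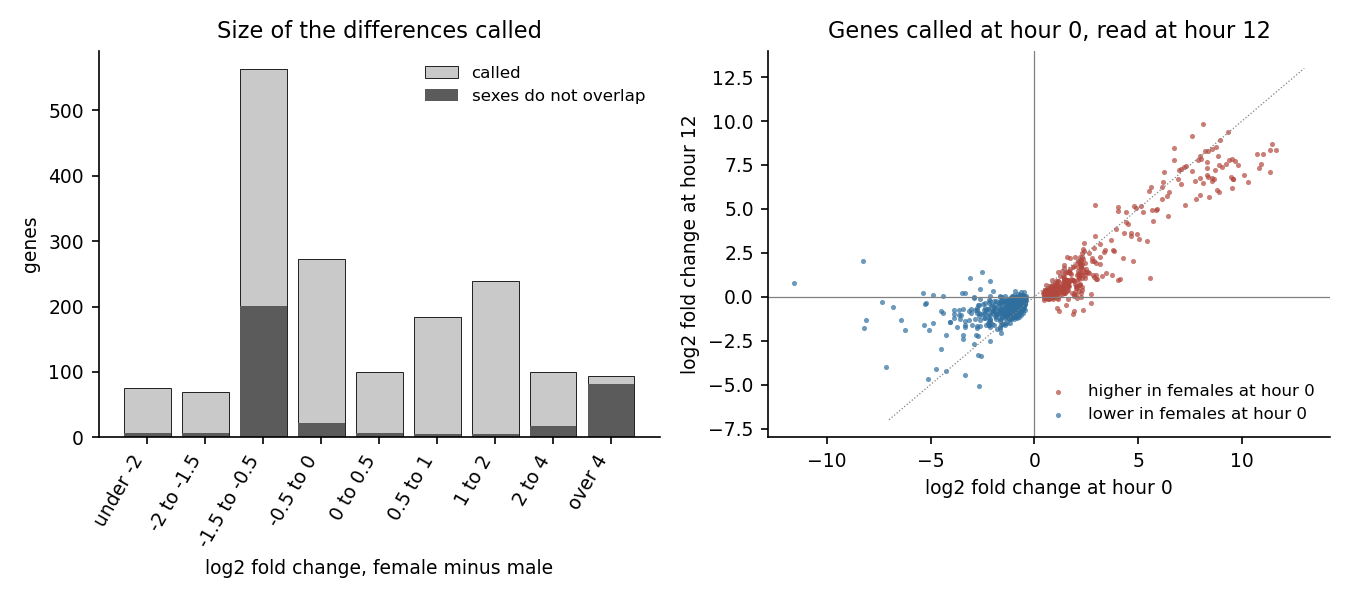
Left, number of genes called in the comparison of 7 females with 8 males by size of the log2 fold change (horizontal axis), with the genes whose sexes do not overlap in the darker bars. Right, log2 fold change at hour 0 (horizontal) and at hour 12 (vertical) of the 1009 genes called at hour 0, each point a gene and the dotted line equal values; 357 of 382 red points lie above 0 and 592 of 627 blue points below 0 at hour 12.

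Of the 93 genes with a symbol, 5 were called across both hours, SCG5, FAM46A, MFAP5 and ATP6V1H lower and PKD1 higher in females. All 5 lie on autosomes. The symbols come from tables of genes that the study listed for treatment or time, so this count says nothing about how often sex moves a gene, and 5 of 93 is below the 8.33% of all genes tested. The median log2 fold change of the 93 was 0.04, against 0.02 over all genes tested.

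SCG5 (secretogranin V), a chaperone of the prohormone convertase that cuts neuropeptide precursors in mammals, lies on chromosome 5 at 30081676 to 30109634 (GRCg7b). At hour 0 it was at 153, 161.04, 162 and 166 CPM in females and at 231, 242, 334 and 334 CPM in males. The hour 0 females thus lay close together and below all males. At hour 12 it was at 179, 240 and 246 CPM in females and at 220, 227, 275 and 329 CPM in males, and only Sample_144 lay below the males. Across both hours the mean was 187 ± 39.2 CPM in females (SD, n = 7) and 274 ± 51.0 CPM in males (SD, n = 8). Females were lower by a log2 fold change of -0.55 (SE 0.133), with adjusted p-values of 0.0239 in edgeR and 0.0051 in DESeq2. The two-sided exact permutation p, without covariates, was 0.00435. SCG5 is named for its call in these same libraries, so the permutation p is no separate support. The call was made in each of the 15 fits without a library. The log2 fold change was -0.83 at hour 0 (adjusted p = 0.0205 from edgeR) and -0.18 at hour 12 (adjusted p = 0.794 from edgeR). The difference between the hours had an unadjusted p of 0.0137 and an adjusted p of 0.943 in edgeR, so that it did not pass.

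FAM46A, known in mammals as a poly(A) polymerase of the TENT family, lies on chromosome 3 at 78113434 to 78162152. It was at 22.1, 22.8, 24.4 and 28.1 CPM in the hour 0 females and at 33.3, 46.2, 52.8 and 56.1 CPM in the hour 0 males. The hour 12 females were at 28.8, 39.4 and 47.3 CPM and the hour 12 males at 33.3, 39.6, 47.5 and 59.6 CPM. As in SCG5, the sexes were apart at hour 0 and overlapped at hour 12, but the difference between the hours did not pass (adjusted p = 0.943 from edgeR). Across both hours females differed by -0.60 on the log2 scale (SE 0.165), with an adjusted p of 0.0436 in edgeR, and the value was -0.94 at hour 0 and -0.21 at hour 12. The call was lost without Sample_12, Sample_15 or Sample_30.

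MFAP5, a glycoprotein of the microfibrils of the extracellular matrix, lies on chromosome 1 at 75932850 to 75945852. The 4 hour 0 females were at 15.2, 18.7, 19.5 and 23.8 CPM and the 4 hour 0 males at 28.4, 31.9, 34.4 and 38.2 CPM. At hour 12 the females were at 17.6, 27.5 and 34.2 CPM, around the 26.3 to 37.1 CPM of males. MFAP5 was lower in females by a log2 fold change of -0.56 (SE 0.155), with an adjusted p of 0.0486 in edgeR, and the call held in 10 of the 15 fits without a library. MFAP5 is also a marker of meninges and connective tissue. Of the 7 such markers listed, 4 others had a symbol (MGP, OC3, CHAD and SERPINF1), and none of them was called (8.33% of all genes tested were). The summed level of these 4 was 10.8 to 24.1 CPM in females and 8.55 to 30.3 CPM in males and overlapped. Most of it was SERPINF1, with means of 12.1 CPM in females and 12.9 CPM in males. CHAD was at 3.56 and 3.22 CPM and MGP at 1.11 and 0.938 CPM. OC3 had no count in 4 of 7 female and 5 of 8 male libraries. The sum thus mostly reads SERPINF1, and whether connective tissue differed between the punches was not tested.

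ATP6V1H, a subunit of the cytosolic sector of the vacuolar proton pump that acidifies lysosomes and secretory vesicles, lies on chromosome 2 at 109925032 to 109991382. It was at 66.2, 67.4, 71.3 and 92.4 CPM in the hour 0 females and at 96.1, 108, 127 and 127 CPM in the hour 0 males. The hour 12 females were at 92.04, 94.0 and 113 CPM and the hour 12 males at 86.5, 106, 113 and 129 CPM, within the same range. The difference of -0.38 on the log2 scale (SE 0.115), at an adjusted p of 0.0745 in edgeR, was the least stable of the 5, being called in 5 of the 15 fits without a library. In these 4 lower genes every hour 0 female lay below every hour 0 male, as did 1151 of all genes tested (5.65%). The sex by hour term passed in none of the 4 (adjusted p = 0.943 each from edgeR). Sample_147, the library with the lowest total, was the highest hour 12 female in SCG5, FAM46A and MFAP5.

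PKD1, which codes for the large membrane protein polycystin-1 of cilia, lies on chromosome 14 at 6303280 to 6389322. It was the only gene with a symbol that was called higher in females. Its level was 270, 325, 351 and 409 CPM in the hour 0 females against 248, 252, 276 and 327 CPM in the hour 0 males. At hour 12 the females were at 323, 326 and 360 CPM and the males at 263, 268, 291 and 295 CPM. Females were higher by 0.29 on the log2 scale (SE 0.082), with an adjusted p of 0.0488 in edgeR. The values were 0.29 at hour 0 (adjusted p = 0.297 from edgeR) and 0.28 at hour 12 (adjusted p = 0.400 from edgeR). PKD1 was thus called at neither hour alone. The call was lost without Sample_12 or Sample_144.

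PSAT1, an aminotransferase of serine synthesis, lies on chromosome Z at 38582875 to 38598178 and was the only named gene of a sex chromosome. It was between 193 and 254 CPM in females, with a median of 228 CPM, and between 214 and 274 CPM in males, with a median of 231 CPM. The sexes differed by -0.05 on the log2 scale (SE 0.077), with an adjusted p of 0.77 in edgeR and a two-sided exact permutation p of 0.503. Its sexes overlapped almost wholly.

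**Figure D4:**
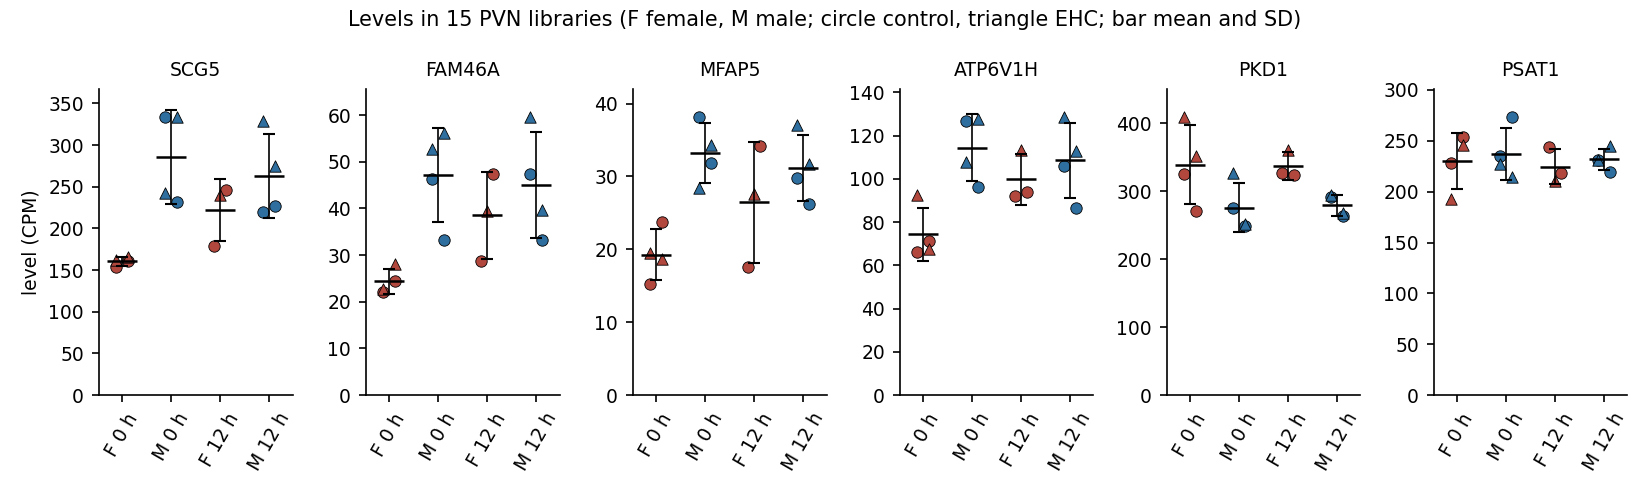
Level in CPM (vertical axes, linear, from 0) of the 5 called genes with a symbol and of PSAT1 in the 15 PVN libraries, by sex (F, M) and hour; circles are control and triangles EHC chicks, and bars are the mean and SD of each group. In SCG5, FAM46A, MFAP5 and ATP6V1H the hour 0 females lie below all hour 0 males and the hour 12 groups overlap, and in PSAT1 the sexes overlap at both hours.

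The genes with a symbol were also read in groups by function. The 4 measured subunits of the vacuolar proton pump all had negative log2 fold changes, with a median of -0.26 against 0.02 over all genes tested. Of the 4, only ATP6V1H passed the test, where 8.33% of all genes did. ATP6V1C1 was at 98.9 CPM in females and 124.03 CPM in males, a log2 fold change of -0.32 (adjusted p = 0.121 from edgeR), and ATP6V1D had a log2 fold change of -0.07. The summed level of the 4 subunits was 307 to 434 CPM in females and 404 to 524 CPM in males. Their median was -0.42 at hour 0 and -0.05 at hour 12.

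Of the 11 mitochondrially encoded mRNAs measured, which code for subunits of the respiratory chain and of ATP synthase, none was called (8.33% of all genes tested were). Their log2 fold changes were all above 0, from 0.04 in COX1 to 0.27 in ND6, with a median of 0.10. The median was 0.20 at hour 0 and 0.00 at hour 12. These transcripts are cut from shared precursors and are not independent of each other. Of the 8 nuclear genes of complex I, 4 were above and 4 below 0, none was called, and the median was -0.01. The lowest was the assembly factor NDUFAF4 at -0.30 (adjusted p = 0.192 from edgeR). The 5 genes of mitochondrial upkeep, among them the chaperone HSPA9 at -0.13, had a median of 0.07 and no call. Lists this short can hold no call at the share of all genes tested.

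Of the 7 genes of extracellular matrix and secreted proteins, 6 were below 0 and MFAP5 alone was called (8.33% of all genes tested were), with a median of -0.29. Among the 6, SERPINF1 was at -0.01 (SE 0.312), MGP at -0.29 (SE 0.543) and OC3 at -0.49 (SE 0.997). The female means of MGP and OC3 were only 1.11 and 0.130 CPM, so the count of directions says little. TIMP2, an inhibitor of metalloproteinases, was at 154 CPM in females and 176.8 CPM in males (log2 fold change -0.21, adjusted p = 0.411 from edgeR). C1QTNF8 had the largest fold change of the list, -1.33, from levels of 0.887 and 1.54 CPM, and was not called (adjusted p = 0.235 from edgeR). The median of this list was -0.66 without Sample_147. None of the 9 genes of RNA and translation, the 7 of signalling, the 4 of proteasome and ubiquitin and the 3 of nuclear export was called, and their medians were 0.08, -0.04, 0.00 and 0.01. Within them, DOCK3, a regulator of the actin cytoskeleton, was at 0.20 (adjusted p = 0.236 from edgeR), and PSMD3, a proteasome subunit, at 0.28 (adjusted p = 0.25 from edgeR).

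Embryonic conditioning was tested next, as a change in the difference between the sexes. The sex by treatment term called 0 genes in edgeR, with 697 at an unadjusted p under 0.05, and 1 gene in DESeq2, which has no symbol and was not among the 1697 calls. Among the 5 named genes called, the term was between -0.33 in FAM46A and 0.19 in PKD1 on the log2 scale. There was only 1 EHC female at hour 12.

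Per the study's methods, the same chicks gave punches of the nucleus of the hippocampal commissure (nCPa) and of the pre-optic anterior hypothalamus (POAH). Values of the nuclei are thus not taken as independent. The PVN had 15 libraries against 16 in each of the others, so that not every chick is in all 3 nuclei. In 16 libraries each, fitted in the same way, 541 genes (2.66%) were called in the nCPa and 604 (2.97%) in the POAH. Of the PVN calls, 394 were called in the nCPa (23.2% of the PVN calls and 72.8% of the nCPa calls) and 417 in the POAH (24.6% and 69.04%). The 3 nuclei shared 340 calls, 113 higher and 227 lower in females. The 227 had median log2 fold changes of -0.86 in the PVN, -0.86 in the nCPa and -0.82 in the POAH. They were picked for a call in each nucleus, in punches of shared chicks, so medians this close are no separate support.

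A total of 1226 genes were called in the PVN and in neither of the other nuclei. The 576 of these that were higher in females had a median of 1.05 in the PVN, 0.13 in the nCPa and 0.28 in the POAH, and 360 and 448 of them were above 0 in those nuclei. The 650 lower genes had medians of -0.71, -0.37 and -0.33, and 572 and 588 of them were below 0. These genes were picked for a call in the PVN and for none in the other nuclei, and such a gap is no test. The test of the difference itself called 0 genes between the PVN and the nCPa (1646 at an unadjusted p under 0.05 in edgeR, 0 calls in DESeq2) and 0 between the PVN and the POAH (1434 in edgeR, 0 calls in DESeq2). These fits had no block for the chick. With the set of library numbers as a replicate block, the test called 14 genes for the nCPa and 69 for the POAH, of which 11 and 34 were among the PVN calls. Over all genes tested, 8.33% were PVN calls. The PVN difference is a part of this term, so the overlap rests in part on the same values. The labels do not say whether a set is a chick. None of the 5 named genes called in the PVN was called in the nCPa or the POAH. SCG5 was at -0.34 (SE 0.314) in the nCPa and at -0.44 (SE 0.212) in the POAH, MFAP5 at -0.42 and -0.70, and FAM46A at 0.04 and -0.40. ATP6V1H was at -0.45 (SE 0.236) and -0.36 (SE 0.156), close to its -0.38 in the PVN, and PKD1 was at 0.05 and 0.07. The error of the SCG5 difference was larger in both than the SE of 0.133 in the PVN, and likewise in ATP6V1H (0.115 in the PVN). For PKD1 the SE was 0.124 in the nCPa and 0.080 in the POAH against 0.082 in the PVN. For FAM46A it was 0.226 and 0.167 against 0.165. Whether the error accounts for the missing calls was not tested. The 11 mitochondrially encoded mRNAs had a median log2 fold change of 0.10 in the PVN, -0.15 in the nCPa and -0.45 in the POAH. None of the 11 was called in the nCPa or the POAH, where 2.66% and 2.97% of all genes tested were. In the nCPa their SE ran from 0.275 in COX2 to 0.644 in ND2. Their share of counts in the hour 12 nCPa was 1.18% to 6.82% in females and 0.919% to 5.95% in males. CYTB, ND2, ND4, ND5 and ND6 were among the 69 genes called for the POAH with the block.

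**Figure D5:**
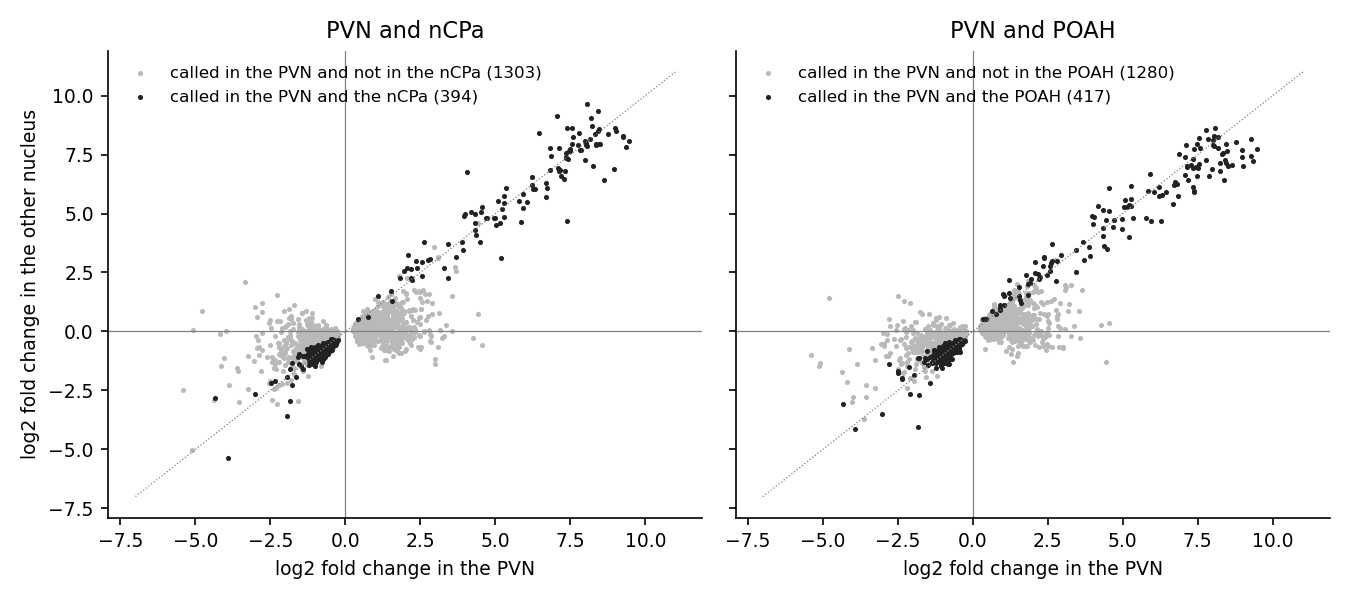
Log2 fold change of females over males in the PVN (horizontal axes) and in the nCPa or the POAH (vertical axes) for the 1697 genes called in the PVN; each point is a gene, dark points were called in the other nucleus as well and the dotted line marks equal values. The 394 and 417 dark points were picked for a call in both nuclei and the gray points for none in the other. Where the 2 kinds of points lie is therefore no test. Not all gray points lie nearer to 0 in the other nucleus: MFAP5 was at -0.56 in the PVN and at -0.70 in the POAH.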

How the data were processed

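Per the study's methods, the authors trimmed reads with Trimmomatic 0.39, aligned them to the GRCg7b genome with HISAT2, kept single matches with SAMtools 1.10, removed duplicates and counted genes with featureCounts. The deposited values are raw counts per gene for 30108 Ensembl genes (release 110) in 71 libraries, none of which lacks a label. Removal of duplicates lowers the counts of abundant genes. Genes over 1 CPM in at least 4 of the 71 libraries were kept (20363). Counts were scaled by TMM and fitted with edgeR 4.0.16 (R 4.3.3, glmQLFit with legacy = FALSE) and, as an alternative, DESeq2 1.42.0, and a gene was called where the adjusted p did not exceed 0.1. CPM values use TMM library sizes except the sum of the 39 genes. Single genes were tested on log2(CPM + 0.5) by exact permutation, with p-values not adjusted. SE is the size of the log2 fold change over the square root of F.

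Symbols come from the study's tables and positions from RefSeq genes of the same symbol (GRCg7b). Genes were named by this rule: every gene with a symbol that was called, members of the lists by count with up to 2 others per list, genes of Z or W, and the 2 higher and 2 lower genes without a symbol with the smallest p. The sexes, lists, rule and tests were chosen with earlier results of these data known. The RT-qPCR genes of the study could not be matched. The fits were tested on simulated data.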

Additional observations from a re-analysis of the deposited data

Results flagged for a closer look

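Sample_174, a control male of hour 12, stood apart from the other 7 males in the summed level of the 39 genes found only in females, at 14.2 CPM. It was the only one of 22 groups of values examined in which a library stood apart, and chance gives about 1 in 20. That rate does not apply to this group, since the 4 hour 0 males were at 0 CPM by the choice of the genes. In the POAH, the hour 12 EHC male Sample_175 was at 13.41 CPM. The lowest female sum in the PVN at hours 0 and 12 was 777 CPM. Without Sample_174, 1782 genes were called in place of 1697.

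Sample_69 of hour 2, labelled male, was left out of the main comparisons and entered only the fit with hour 2 added as labelled. It held 874.4 CPM of the same genes, above the 14.2 CPM of the highest male of hours 0 and 12.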

How the results depend on the processing

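The count of genes called by sex (1697) was 1424 to 2426 under the other scaling, filters, covariates, tools and additional exclusions, apart from 2 settings: 607 genes passed in both edgeR and DESeq2 with an absolute log2 fold change over 1, and 1065 with hour 2 added as labelled. With hour 2 added but for Sample_69 and Sample_72, it was 1708, and without both Sample_147 and Sample_174 it was 2426; these were chosen after seeing the data. Leaving out a library gave 994 to 2467 genes across both hours, 323 to 1582 at hour 0 and 65 to 470 at hour 12, where DESeq2 called 390 in place of 235. DESeq2 called 1 gene for sex by treatment in place of 0. PSAT1 changed sign with hour 2 added, to 0.04 as labelled and 0.003 without Sample_69 and Sample_72. Of the values for 10 single genes (the 5 named calls, PSAT1 and the 4 without a symbol), 26 lost their call and 222 did not change side. PSAT1 had no call to lose, and the 4 without a symbol were called in all 15 fits without a library. The 222 thus say little about how stable the 5 named calls are. Per the study's methods the 3 nuclei share chicks, but the labels do not name the chick. With a replicate block by set of library numbers, the sex by nucleus term called 14 genes for the nCPa and 69 for the POAH, in place of 0; the 69 hold CYTB, ND2, ND4, ND5 and ND6. Deviations of libraries of the same set, from the mean of their treatment, hour and sex, correlated with a median of 0.127 with the nCPa and 0.165 with the POAH. With 2 libraries in a group, the values for other sets (-0.127 and -0.165) only mirror these and are no separate comparison. The lowest values of the same set were -0.14 with the nCPa and 0.03 with the POAH. Both pairs of a group of 2 libraries give the same value, so the 13 pairs are not independent and were not counted by sign. With 1 EHC female at hour 12 and a female library of 1739986 counts, hour 12 is the least firm. Since the filter was passed in any 4 of the 71 libraries, genes under 1 CPM in the PVN were tested at low counts.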
